A study of Arabidopsis thaliana with 6 samples.

Results

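The genes described here are the tau (GSTU) and phi (GSTF) glutathione transferase genes of Arabidopsis thaliana, chosen by gene symbol where at least 1 probe was well above background on at least 1 of the 6 arrays. Of 39 such loci in the annotation, GSTU20 and GSTF11 set aside, GSTU21 had no probe on the array, and 5 tau genes (GSTU3, GSTU9, GSTU10, GSTU15 and GSTU25) and the phi gene GSTF14 were not well above background on any array. The remaining 32 genes, 21 of the tau and 11 of the phi class, are the members, out of 21300 genes measured.

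Glutathione transferases join the tripeptide glutathione to electrophilic molecules, which marks these for export or for storage in the vacuole. The tau and phi classes are the large plant-specific classes of this family, and many of their genes are known to respond within hours to herbicides, oxidative stress, jasmonate precursors, salicylic acid and wounding. Others act in normal metabolism, among them GSTF12 (TT19), which is needed for anthocyanin to reach the vacuole, and GSTF6, which conjugates a precursor of the defence compound camalexin.

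RNA came from the shoot apical meristem with juvenile leaves of 21-day-old plants, 30 plants pooled per sample, and each of the 6 samples was hybridised to 1 single-colour array. All plants carried XVE, a chimeric activator that estradiol turns on. Samples differed as follows: AMY3C-EY plants untreated (0 h), AMY3C-EY plants 1, 3 and 6 h after 20 µM 17-β-estradiol was brushed on the meristems, AMY3C-EY plants 6 h after a DMSO brushing (the solvent control), and plants that carried XVE alone 6 h after estradiol. The labels describe neither the product of AMY3C-EY nor the number of independent lines, and the samples used here include no DMSO control at 1 or 3 h, so at those times estradiol, the construct and the handling of the plants cannot be told apart.

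With 1 array per group no difference below has a replicate check and no test was possible. Levels are log2 intensities relative to the 75th percentile of each array, so a level of 0 equals that percentile, and they are compared between arrays within a gene, not between genes. Errors after ± are the scanner software's error of the spots behind a value (median 0.14 for a member's level). They leave out the variation between plants and the spread between probes of a gene. A gene was counted as higher or lower where it was at least 2-fold apart and well above background on both arrays, and the share of all measured genes passing the same rule is given as the background. Where 1 side was not well above background only a bound ("at least N-fold") can be given, set against the lowest signal well above background on the dim array or the gene's own signal there, whichever is higher. The 4 time-course arrays shared 1 slide and both 6 h controls shared a second one, so slide and group cannot be told apart wherever a control is set against the time course. All comparisons with 0 h share the same array, so anything unusual about it enters each of them.

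Of the array's general features, 67.9% to 77.5% of spots were well above background and no spot was saturated. The starch-degrading alpha-amylase gene AMY3, whose name the construct bears, had levels of 1.34, 2.49, 3.55 and 3.88 at 0, 1, 3 and 6 h, with 2.53 in DMSO and 2.47 in XVE plants. Of 5 meristem markers, STM, CLV3, CLV1 and KNAT1 were well above background on all 6 arrays and WUS on none, with a log2 summed level between 1.29 and 1.80. Of 6 root markers, 3 were well above background on every array, CASP1 on 2 arrays, and EXPA7 and RSL4 on none, and their log2 summed level ranged from 4.50 at 3 h to 6.36 in XVE plants. Of the flower markers AP1, LFY and AG, LFY was well above background on no array. The log2 summed level of 4 leaf mesophyll markers (RBCS1A, RCA, LHCB1.3, LHCB2.1) was 6.97, 7.35, 6.82 and 6.45 at 0, 1, 3 and 6 h, 7.13 in DMSO and 8.08 in XVE plants. In such bulk samples, fewer cells of a type and less RNA per cell cannot be told apart.

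At 1 h of estradiol a subset of the tau class was higher than at 0 h. GSTU5, GSTU6, GSTU7, GSTU16 and GSTU17 were 2.82-fold to 9.195-fold higher, which is 5 of the 13 tau members measurable on both arrays (38.5%) against 6.31% of all genes. No tau member was at least 2-fold lower, against 6.38% of all genes, although GSTU18 was with the brightest probe (-1.21). GSTU4 and GSTU24 were not well above background at 0 h, so they are outside the 13 and are members only through later arrays. They were higher at 1 h by at least 10.49-fold and at least 2.04-fold, but no all-gene share was computed for such bounds. The other 8 measurable tau members lay between -0.68 and 0.25 on the log2 scale, and the tau median was 0.23 beside -0.08 for all genes. All 5 genes stayed at least 2-fold higher under quantile scaling, under normexp background correction and with the brightest probe. GSTU5, GSTU6 and GSTU7 have 1 probe each, so the brightest probe could not change them. The authors' table and keeping dim probes could not move any of the 5 calls.

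**Figure D1:**
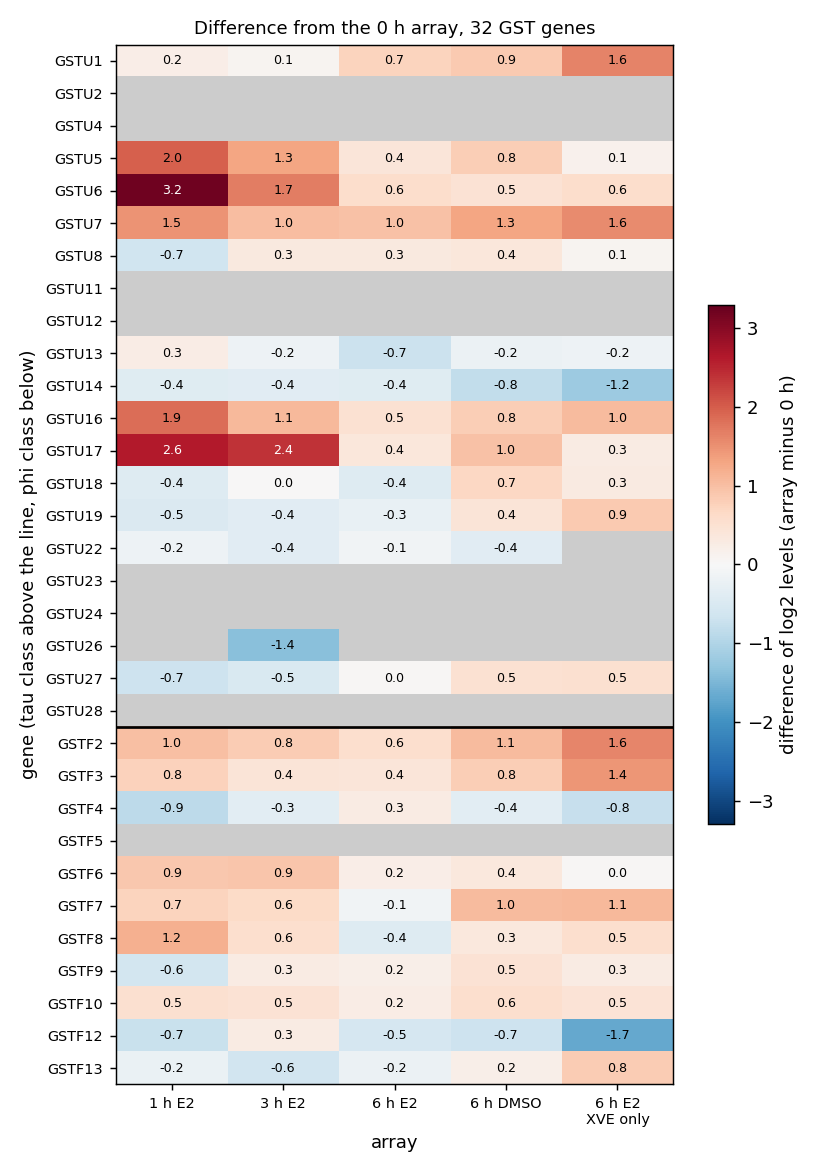
Difference of log2 levels from the 0 h array (colour and printed value) for the 32 members (vertical axis, tau class above the line and phi class below) on the 5 later arrays (horizontal axis). Grey cells are genes not well above background on both arrays. GSTU5, GSTU6, GSTU16 and GSTU17 are darkest at 1 h and pale by 6 h, and GSTU1, GSTF2 and GSTF3 are darkest with XVE alone.

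GSTU6 had the largest measured difference among the members at 1 h. Its level was -2.46, 0.74, -0.78 and -1.89 at 0, 1, 3 and 6 h, beside -1.98 in DMSO and -1.87 in XVE plants. The 1 h array was the highest, the 3 h array came next, and all 3 samples taken at 6 h lay close together and above 0 h. The difference at 1 h was 3.20 ± 0.22 (9.195-fold), and GSTU6 was the 1 member of the 22 well above background everywhere that was at least 2-fold higher at 1 h than on all 5 other arrays, a pattern held by 1.81% of all genes.

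GSTU17 (ERD9), first described as a gene induced early by dehydration and linked to drought responses, behaved differently at 3 h. It measured -0.74, 1.87, 1.65 and -0.37 at 0, 1, 3 and 6 h, with 0.24 in DMSO and -0.47 in XVE plants. Both the 1 and 3 h arrays were high, and the other 4 were low. The differences from 0 h were 2.61 ± 0.12 (6.1-fold) at 1 h and 2.39 ± 0.12 (5.24-fold) at 3 h, and 0.37 at 6 h. Its 3 probes gave 1.996, 2.64 and 3.20 at 1 h.

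GSTU5 was at 2.01, 3.98, 3.31 and 2.41 at 0, 1, 3 and 6 h, and at 2.82 in DMSO and 2.15 in XVE plants. It was highest at 1 h and lowest at 0 h, with the DMSO array above both 6 h estradiol arrays. The differences from 0 h were 1.97 ± 0.20 (3.92-fold) at 1 h, 1.305 ± 0.20 (2.47-fold) at 3 h and 0.41 at 6 h.

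GSTU16 was at -3.32, -1.47, -2.24 and -2.82 at 0, 1, 3 and 6 h, and at -2.50 in DMSO and -2.28 in XVE plants. The 1 h array was again the highest, but the 3 h and XVE arrays were nearly level. The 1 h difference was 1.85 ± 0.19 (3.61-fold), for which its 2 probes gave 2.34 and 1.36. GSTU7 was at -2.64, -1.14, -1.62 and -1.66 at 0, 1, 3 and 6 h, and at -1.34 in DMSO and -1.08 in XVE plants. Unlike the other 4, GSTU7 stood as high in XVE plants as at 1 h and stayed well above 0 h on every later array. Its differences from 0 h were 1.495 ± 0.22 (2.82-fold) at 1 h, 1.01 at 3 h, 0.97 at 6 h, 1.29 in DMSO and 1.56 in XVE plants.

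GSTU4 was not well above background at 0 h, where it measured -4.62. It was well above background on all later arrays, at -0.95 at 1 h, -2.36 at 3 h, -2.10 at 6 h, -1.47 in DMSO and -2.41 in XVE plants. The 1 h array was the highest and DMSO the next, and the bounds against 0 h ran from at least 3.81-fold in XVE plants to at least 10.49-fold at 1 h. GSTU24, whose enzyme can act on the explosive TNT, showed the same pattern of detection, from -5.03 at 0 h to -3.31, -3.49 and -3.72 at 1, 3 and 6 h, -3.23 in DMSO and -3.01 in XVE plants. For GSTU24 the later arrays differed little, and the bounds ran from at least 1.54-fold at 6 h to at least 2.51-fold in XVE plants. GSTU2 was the third gene below background at 0 h alone, with later levels between -4.76 and -4.08 and bounds of at most 1.20. GSTU4 and GSTU24 exceeded the 0 h bound on every later array, DMSO included, whereas GSTU2 at 3 and 6 h did not reach the lowest signal well above background at 0 h. GSTU4, GSTU24 and GSTU2 are members only through later arrays, so higher values there are partly built into the choice.

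**Figure D2:**
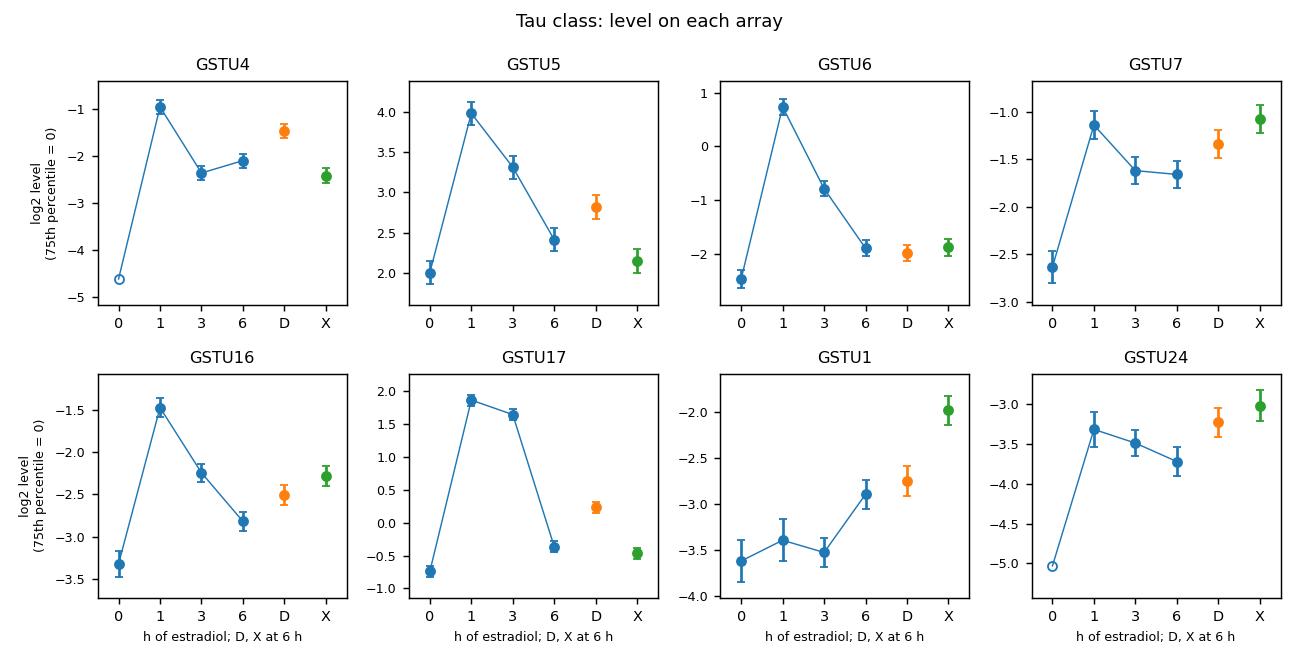
Log2 level relative to the array's 75th percentile (vertical axis) on each array (horizontal axis: 0, 1, 3 and 6 h of estradiol in AMY3C-EY plants, D for DMSO and X for XVE plants at 6 h) for tau members. Error bars are the scanner software's spot error. GSTU6, GSTU17, GSTU5 and GSTU16 are highest at 1 h, while GSTU1 and GSTU7 are highest in XVE plants.

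The 5 tau genes counted at 1 h were closer to their 0 h level at the later times. All 5 were lower at 3 h than at 1 h and lower again at 6 h than at 3 h. All 5 were still at least 2-fold above 0 h at 3 h, and none was at 6 h. GSTU7 was nearly level between 3 h (-1.62) and 6 h (-1.66), a step smaller than the spot error of either level (0.15). Its 6 h difference of 0.97 was 1.05 after quantile scaling. Of the 1129 genes in all that were at least 2-fold higher at 1 h and measurable through the series, 93.4% were lower at 3 h than at 1 h and 70.9% lower at 6 h than at 3 h, 24.6% were still at least 2-fold up at 3 h and 16.7% at 6 h. Because these genes were picked on the 1 h array, a lower value on the next is partly built into the choice.

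At 3 h the same 5 tau genes made up the higher calls, 5 of 14 tau members against 2.38% of all genes. GSTU26 was lower, at -1.37 ± 0.34 (2.59-fold), as 1 of 14 tau members against 5.0% of all genes, a share near the background. Phi members gave no call in either direction. Under normexp background correction GSTU6, GSTU7 and GSTU16 lost the call at 3 h, with differences of 0.85, 0.59 and 0.36, so 2 of the 5 kept it. The all-gene split at 3 h also depended on scaling: 32.2% of calls were higher in the main setting, 45.4% after quantile scaling and 15.6% after normexp.

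At 6 h of estradiol no tau or phi member was at least 2-fold from 0 h in either direction among those measurable on both arrays, 13 tau and 10 phi. Across all genes 2.61% were higher and 2.84% lower, so a count of 0 among so few members is near the background. The largest tau differences were 0.97 for GSTU7 (1.05 after quantile scaling, which passes 2-fold) and 0.73 for GSTU1, and -0.70 for GSTU13, whose enzyme acts in the pathogen-defence branch of indole glucosinolate metabolism.

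**Figure D3:**
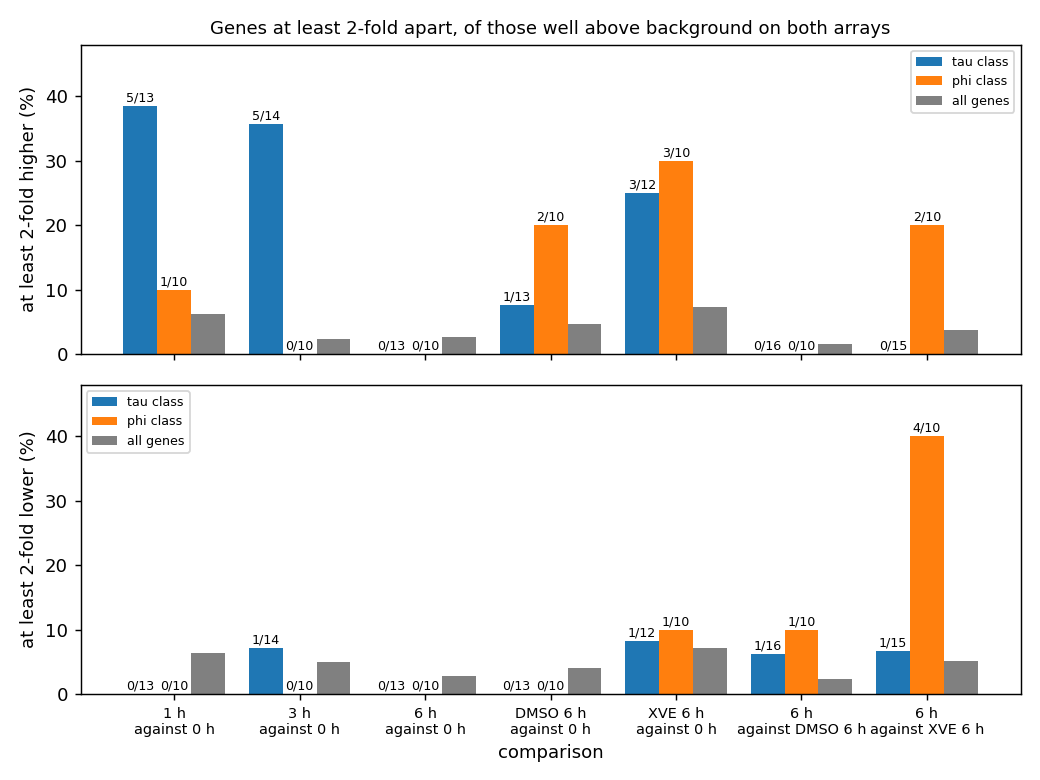
Share of genes at least 2-fold higher (upper panel) or lower (lower panel), in percent, for tau members, phi members and all genes in the 7 comparisons on the horizontal axis. Numbers over bars are called members over members well above background on both arrays. The tau bars reach 5 of 13 at 1 h and 5 of 14 at 3 h against 6.31% and 2.38% of all genes, and are empty at 6 h.

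Most phi members stayed within 2-fold of 0 h at 1 h. GSTF8, whose promoter is a standard reporter of early stress responses in Arabidopsis, was the 1 call, 1 of 10 phi members against 6.31% of all genes, a share near the background. None was lower, against 6.38%. It was at -0.02, 1.17, 0.53 and -0.44 at 0, 1, 3 and 6 h, and at 0.32 in DMSO and 0.53 in XVE plants. The 1 h array was the highest and the 6 h estradiol array the lowest, below both of its 6 h controls. The difference was 1.18 ± 0.14 (2.27-fold) at 1 h, 0.97 under normexp, and 0.55 at 3 h. The phi median at 1 h was 0.63 beside -0.08 for all genes, with 6 of 10 members above 0. GSTF6 was at 0.11 at 0 h at 1.00 and 1.03 at 1 and 3 h (under 2-fold apart from 0 h), and at 0.32 at 6 h, 0.46 in DMSO and 0.16 in XVE plants. Its 1 and 3 h arrays were the high ones, as for GSTU17.

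GSTF2, a phi enzyme that binds camalexin and other indole compounds, was lowest at 0 h and highest in XVE plants. It measured -1.40, -0.41, -0.57 and -0.84 at 0, 1, 3 and 6 h, with -0.34 in DMSO and 0.20 in XVE plants. GSTF3 is its close relative, and it measured -3.99, -3.23, -3.56 and -3.58 at 0, 1, 3 and 6 h, -3.18 in DMSO and -2.54 in XVE plants. The order of the 6 arrays from low to high was the same for both. Whether their probes share signal was not tested, because probe sequences were not used here. GSTF10, a partner of the receptor kinase BAK1, varied little, between 2.72 at 0 h and 3.27 in DMSO. GSTF9 was lowest at 1 h (2.90) and lay between 3.51 and 3.98 elsewhere.

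**Figure D4:**
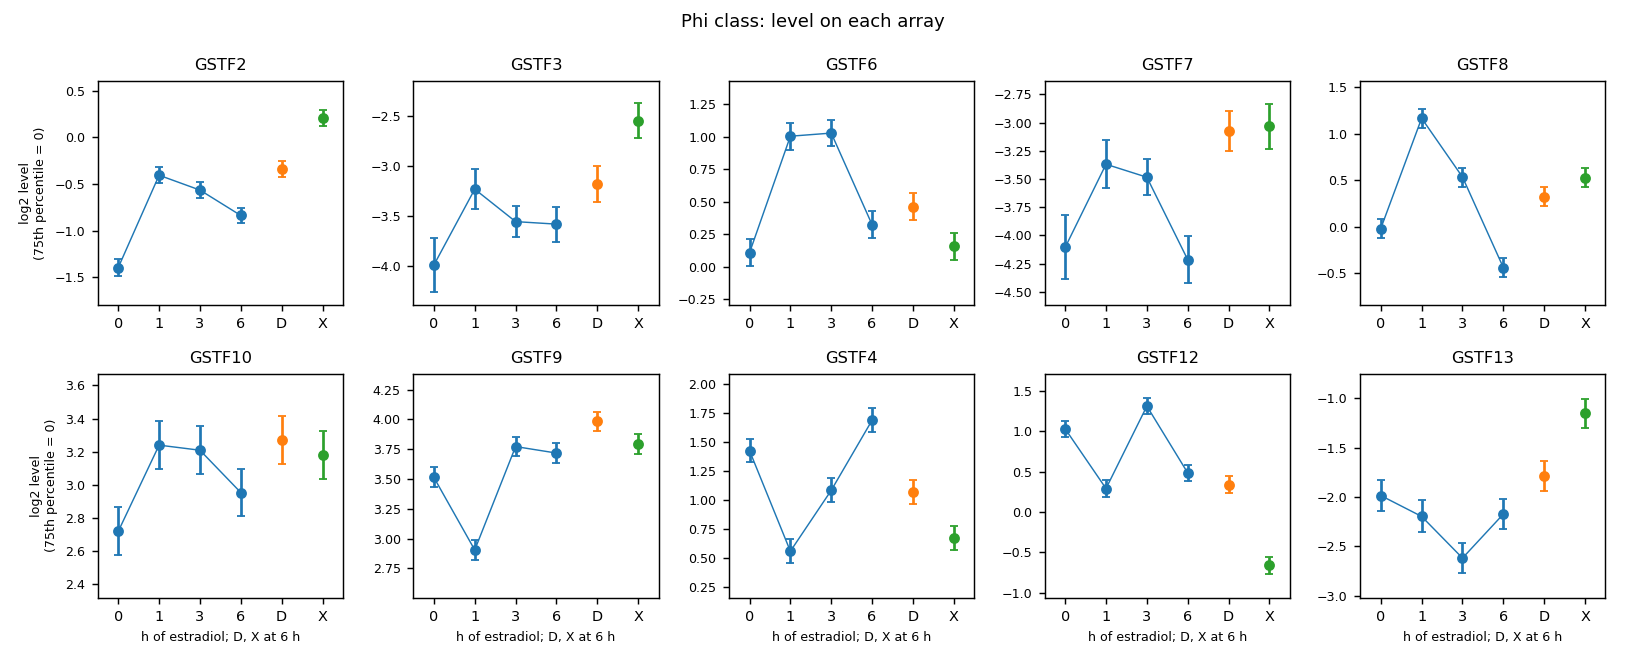
Log2 level relative to the array's 75th percentile (vertical axis) on each array (horizontal axis: 0, 1, 3 and 6 h of estradiol in AMY3C-EY plants, D for DMSO and X for XVE plants at 6 h) for the 10 phi members well above background on every array. Error bars are the scanner software's spot error. GSTF8 peaks at 1 h (1.17), GSTF2 and GSTF3 are highest and GSTF12 is lowest (-0.66) in XVE plants.

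Both 6 h controls differed from 0 h as well. In DMSO plants GSTU7 (1.29 ± 0.22, 2.45-fold), GSTF2 (1.05 ± 0.12, 2.07-fold) and GSTF7 (1.04 ± 0.33, 2.05-fold) were higher, which is 1 of 13 tau and 2 of 10 phi members against 4.61% of all genes. No member was lower in DMSO plants, against 4.07%. Under normexp GSTU7, GSTF2 and GSTF7 all lost the call, with GSTF7 down to 0.11. The 3 probes of GSTF2 gave 1.80, 0.33 and 1.03 in DMSO plants. GSTU1 passed 2-fold after quantile scaling (1.01), and GSTU16 and GSTU18 with the brightest probe (1.05 and 1.28).

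In XVE plants 3 of 12 tau and 3 of 10 phi members were higher than at 0 h, against 7.25% of all genes. These were GSTU1, GSTU7, GSTU16, GSTF2, GSTF3 and GSTF7. GSTU1 was at -3.62, -3.40, -3.53 and -2.89 at 0, 1, 3 and 6 h, and at -2.75 in DMSO and -1.98 in XVE plants. It barely differed among 0, 1 and 3 h and was higher in all 3 samples taken at 6 h, most so in XVE plants (1.64 ± 0.28, 3.12-fold). The phi difference was 1.60 ± 0.12 (3.03-fold) for GSTF2, 1.45 ± 0.32 (2.73-fold) for GSTF3 and 1.07 ± 0.35 (2.11-fold) for GSTF7. The 3 probes of GSTF2 gave 2.65, 0.72 and 1.43, a spread that its ± value leaves out. Under normexp GSTU16, GSTF3 and GSTF7 lost the call (0.76, 0.85 and 0.56), and GSTU16 lost it with the brightest probe too.

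GSTU14 and GSTF12 were at least 2-fold lower in XVE plants than at 0 h. This is 1 of 12 tau and 1 of 10 phi members against 7.25% of all genes, shares near the background. GSTU14 was at -1.19 ± 0.22, and by -0.73 under normexp. GSTF12 was at 1.03, 0.29, 1.31 and 0.48 at 0, 1, 3 and 6 h, and at 0.34 in DMSO and -0.66 in XVE plants. The 0 and 3 h arrays were the high ones and XVE the low one, by -1.69 ± 0.15 against 0 h (3.23-fold lower). The late anthocyanin enzymes were low on the same array: all 4 measurable there and at 0 h were at least 2-fold lower, with DFR at -3.00. Among these, AT4G14090 was at -0.56 under normexp (-1.28 in the main setting) and UF3GT at -0.99 after quantile scaling (-1.02). LDOX dropped below background in XVE plants and was at least 4.61-fold lower. These enzymes were not low on the XVE array alone. At least 2-fold lower than at 0 h were 2 of 5 at 6 h of estradiol (median -0.65) and 2 of 5 in DMSO (median -0.86). The shares of all genes were 2.84% and 4.07%. At 6 h LDOX was at -1.22, and at -0.95 under normexp. The median was -0.68 at 1 h and 0.05 at 3 h, with none 2-fold apart. The leaf mesophyll markers were higher in XVE plants than at 0 h, 3 of 4 by at least 2-fold with a median of 1.08, and their part in these differences was not tested. RBCS1A and LHCB1.3 were under 2-fold after quantile scaling (0.59 and 0.74), RBCS1A and RCA with the brightest probe (0.87 and 0.46), and RBCS1A under normexp (0.92).

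The estradiol array at 6 h was then set against its 6 h controls, DMSO for the estradiol treatment and XVE for the construct. Against DMSO, GSTU18 (-1.11 ± 0.14, 2.16-fold) and GSTF7 (-1.14 ± 0.27, 2.21-fold) were lower, 1 of 16 tau and 1 of 10 phi members against 2.42% of all genes. No member was higher, against 1.51% of all genes. GSTU18 was -0.96 after quantile scaling and GSTF7 -0.60 under normexp. GSTU18 was at 2.36, 1.93, 2.38 and 1.93 at 0, 1, 3 and 6 h, 3.04 in DMSO and 2.67 in XVE plants. The time course spanned a narrow range and both arrays of the other slide lay above it.

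Against XVE plants with the same estradiol treatment, 1 of 15 tau and 4 of 10 phi members were lower at 6 h, beside 5.22% of all genes. The tau share is near that background. The lower members were GSTU19 (-1.11 ± 0.12), GSTF2 (-1.04 ± 0.12), GSTF3 (-1.04 ± 0.25), GSTF7 (-1.18 ± 0.29) and GSTF13 (-1.02 ± 0.21). The 3 probes of GSTF2 gave -1.48, -0.54 and -1.11. GSTU19, an abundant and highly active conjugating enzyme in this plant, was at 4.44, 3.96, 4.07 and 4.19 at 0, 1, 3 and 6 h, 4.86 in DMSO and 5.30 in XVE plants. With the brightest probe GSTU19 also passed 2-fold at 3 h (-1.16) and in XVE plants (1.91) against 0 h, and at 6 h against DMSO (-1.01). GSTF4 (1.01 ± 0.15) and GSTF12 (1.14 ± 0.15) were higher, 2 of 10 phi members beside 3.7% of all genes. GSTF4 was at 1.43, 0.56, 1.08 and 1.69 at 0, 1, 3 and 6 h, 1.07 in DMSO and 0.68 in XVE plants. In the main setting all of these lay close to the 2-fold line. Under normexp GSTF7 alone kept its call, and GSTU19 and GSTF13 also lost theirs after quantile scaling (-0.80 and -0.999). With the brightest probe GSTF4 was at 0.13, GSTU19 at -2.25 and GSTF12 at 1.51. On the same pair of arrays the 4 mesophyll markers were all at least 2-fold lower at 6 h, with a median of -1.57, and their part in these differences was not tested. RBCS1A and LHCB1.3 were under 2-fold after quantile scaling (-0.92 and -0.82), and LHCB2.1 with the brightest probe (-0.62).

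No member was at least 2-fold apart from the untreated, DMSO and XVE arrays alike after 6 h of estradiol, beside 0.306% of all genes. Of the 22 members well above background on all 6 arrays, GSTF4 lay above all 3 controls by any amount, against 17.9% of all genes. GSTU13, GSTU18, GSTU19, GSTF7, GSTF8 and GSTF13 lay below all 3, which is 6 of 22 against 23.1%. The 1 h array was the highest of all 6 for 6 of the 22 members (GSTU5, GSTU6, GSTU13, GSTU16, GSTU17 and GSTF8) against 21.7% of all genes, and the lowest for 6 (GSTU8, GSTU18, GSTU19, GSTU27, GSTF4 and GSTF9) against 25.5%, both near the background. The XVE array was the highest for 8 of 22 against 20.8% and the lowest for GSTU14 and GSTF12 against 21.8%. Between slides, 9 of 22 members (GSTU1, GSTU18, GSTU19, GSTU27, GSTF2, GSTF3, GSTF7, GSTF9 and GSTF13) were higher on both arrays of the DMSO and XVE slide than on all 4 time-course arrays, against 14.2% of all genes, and GSTU14 was lower on both, against 13.4%. For GSTU18 this held for the mean of its 2 probes and for neither probe alone, and GSTF2 and GSTF9 also had at least 1 probe without it.

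Across all treatments, 10 of the 22 members were above their 0 h level on every later array, against 17.6% of all genes. They were GSTU1, GSTU5, GSTU6, GSTU7, GSTU16, GSTU17, GSTF2, GSTF3, GSTF6 and GSTF10. None of these 22 was at least 2-fold higher on all 5, against 0.628% of all genes. GSTU4 is not among the 22, being dim at 0 h. By its bounds it was higher on all 5, by at least 3.81-fold to at least 10.49-fold, but it is a member only through those arrays. The 0.628% does not cover genes dim at 0 h, and no share was computed for them. Both the 6 h DMSO and the XVE arrays are part of the pattern of higher values on every later array, as is the shared 0 h array.

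Many members lie in runs of neighbouring genes, and 3 of the 5 tau genes counted at 1 h lie in 1 of them. The run from GSTU7 to GSTU1 on chromosome 2 holds 7 tau genes, 6 of them members. At 1 h GSTU7, GSTU6 and GSTU5 at one end were higher by 1.495, 3.20 and 1.97, GSTU4 came next with at least 10.49-fold, and at the other end GSTU1 was at 0.23. GSTU2, next to it, has only a bound (at least 1.20-fold). Neighbours could also part: on chromosome 1 GSTU17 was higher by 2.61 at 1 h while the adjacent GSTU18 was at -0.43. That GSTU18 value is the mean of 2 probes of opposite sign (-1.21 and 0.35). In the run GSTF7, GSTF6, GSTF5 and GSTF4, also on chromosome 1, GSTF7 and GSTF6 were at 0.74 and 0.90, GSTF4 was at -0.87, and GSTF5 was well above background at 0 h alone. Near-identical neighbours may share signal on a probe, which was not tested.

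Related genes outside both classes were compared at 1 h. Of all genes 6.31% were higher and 6.38% lower, so counts of 0 or 1 in lists this small are near the background. Of 11 measurable genes of the other glutathione transferase classes (lambda, theta, zeta, dehydroascorbate reductases and 2 further loci) none was at least 2-fold apart, and their median was 0.25. With the brightest probe the zeta gene GSTZ1 went from 0.69 to 1.14 and passed 2-fold. In glutathione synthesis and recycling, 11 genes were measurable and had a median of 0.37: GGT1, which breaks down glutathione outside the cell, was higher by 1.34, GGT2 was at -1.33, the sulfate-assimilation gene APR1 at -0.99 and the glutathione reductase gene GR2 at 0.80. Under normexp GGT1 and GGT2 lost the call (0.97 and -0.74), as did GGT1 with the brightest probe (0.83). APR1 passed 2-fold after quantile scaling (-1.01). With the brightest probe the glutathione synthesis gene GSH2 (named after its value was seen) went from 0.61 to 1.57. Of 7 glutathione peroxidase-like genes GPX7 was higher by 1.03, and at 0.55 under normexp. Of 8 ABCC transporters, the class that carries glutathione conjugates into the vacuole, none passed 2-fold, with ABCC4 highest at 0.86.

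A list of detoxification genes known to be induced along with tau transferases was also counted. The 12-oxophytodienoate reductase genes OPR1 and OPR2 were higher at 1 h by 2.64 and 2.01, CYP81D8 by 1.05 and the glucosyltransferase gene UGT73B4 by 1.02 (named after its value was seen), while CYP81D11 was at -1.12. This is 4 of 11 higher and 1 of 11 lower against 6.31% and 6.38% of all genes. Under normexp CYP81D8 and UGT73B4 lost the call (0.56 and 0.58). At 3 h OPR1 and OPR2 were at 0.98 and 0.89, and both passed 2-fold after quantile scaling (1.05 and 1.04). Among 10 measurable regulators of glutathione transferase promoters, the stress-responsive factors NAC032 and NAC102 were higher by 1.54 and 1.31, and GRX480, a glutaredoxin that binds TGA factors, by 1.503. Under normexp NAC032 and GRX480 lost the call (0.96 and 0.78). With the brightest probe TGA2 gained one (-1.19), as did SCL14 (named after its value was seen), which went from -0.42 to -1.10. The TGA factors themselves, which bind such promoters, lay between -0.80 (TGA2) and 0.48. In the camalexin pathway of GSTF6, 4 of 6 genes were measurable on both arrays, with a median of 0.28. CYP79B2 was higher by 1.43 and GGP1 by 1.12, and CYP79B3 was at -1.46. This is 2 of 4 higher and 1 of 4 lower, against 6.31% and 6.38% of all genes. The lists were chosen with results of these arrays known, so the counts describe them and are no independent evidence.

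**Figure D5:**
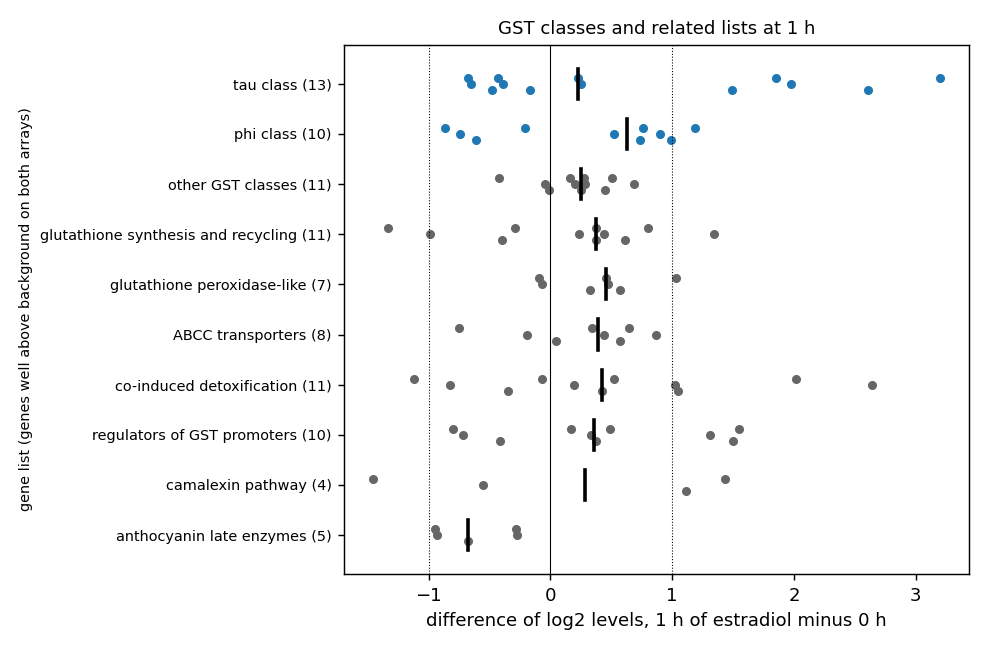
Difference of log2 levels at 1 h of estradiol from 0 h (horizontal axis, dotted lines at 2-fold) for genes well above background on both arrays, 1 point per gene, by list (vertical axis, number of genes in brackets). Thick bars are medians. The tau class splits into 5 genes from 1.495 to 3.20 and 8 genes at or below 0.25, and the other glutathione transferase classes lie within 2-fold (GSTZ1, at 0.69, reaches 1.14 with the brightest probe).

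The members not yet described differed little or were dim. At 1 h GSTU8 was at -0.66, GSTU27 at -0.68, GSTU14 at -0.39 and GSTU22 at -0.16, all short of 2-fold. GSTU22 was not well above background in XVE plants, where it was at least 1.57-fold lower than at 0 h. GSTU26 was well above background at 0 h (-3.62) and 3 h (-4.99) and lower elsewhere by bounds of at least 1.38-fold to at least 2.85-fold. GSTF5 was well above background at 0 h alone (-3.53) and lower on each later array, by bounds from at least 1.47-fold to at least 4.02-fold. GSTU11 was well above background at 1 h alone (-4.02), GSTU12 at 1 and 3 h (-4.03 and -5.10), GSTU23 at 3 h (-4.96) and GSTU28 at 3 and 6 h (-5.24 and -4.32), with bounds no greater than 1.25-fold where any could be given.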

How the data were processed

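Per the labels, each array carried 1 dye (Alexa 555). The authors deposited scanner output from Agilent Feature Extraction 10.5.1.1 (version per the submitters' processing notes). Its processed intensity has, per the file headers, the background subtracted and spatial trends removed, with no scaling across arrays. Deposited flags (0 or 1) mark spots as bright over background, saturated or outliers. The authors' deposited log2 table differed from the scale used here by 1 constant per array, within 0.01, for all 43464 probes compared, so its scale, centring and direction are known. Its medians by array were -2.085 for 0 h, -2.122 for 1 h, -2.146 for 3 h, -2.114 for 6 h, -2.087 for XVE and -2.145 for DMSO.

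The 75th percentile of each array was subtracted from log2 processed intensity, and unflagged spots of a probe were averaged (43803 non-control spots, 43603 probes, 139 not used). RefSeq accessions without versions linked 34178 probes to 1 locus, 9286 to none and 0 to several; the TAIR10.1 gene table gave names and neighbours, not coordinates. A gene's level is the mean over those of its probes that passed the background flag on any array, and 21 of the 32 members had 1 probe. GSTU17 was found by its synonym (RefSeq symbol ERD9); GSTT1, which carries the synonym GSTU12, is theta by symbol and was not a member. Genes form a run where at most 3 other protein-coding genes separate them.

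Members may be named whatever their value, and of each other list up to 4 genes with the largest differences in a comparison. The members and lists were chosen with earlier results of these data known. Alternatives were quantile scaling, normexp background correction (offset 50, limma), the authors' table, keeping dim probes, and taking only the brightest probe of a gene. Normexp was planned on mean signals, but medians were used because the files used hold no means. The computation was tested on simulated data. Python 3.11.15 with pandas 2.3.3, numpy 2.4.6 and matplotlib 3.10.9, and R 4.3.3 with limma 3.58.1, were used.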

Additional observations from a re-analysis of the deposited data

How the results depend on the processing

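No paired analysis was possible because each group is 1 array, and no array could be left out. The authors' table gave the same count or median for both classes in all comparisons. It differs from the scale used here by 1 constant per array, so it is no separate check. For tau members higher at 1 h the count stayed at 5 under quantile scaling, normexp, the authors' table and the brightest probe.

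Keeping dim probes counts all 21 tau and 11 phi members, also where a value lies below the lowest signal well above background. The other alternatives count the members of the main setting. Without the filter on dim probes the tau count of higher members was 10 at 1 h (5 in the main setting), 8 at 3 h (5), 4 at 6 h (0), 5 in DMSO (1), 7 in XVE plants (3) and 1 for 6 h against DMSO (0). The tau count of lower members was then 1 at 1 h (0), 1 at 6 h (0), 2 in DMSO (0), 2 in XVE plants (1) and 2 for 6 h against DMSO (1). The phi count of lower members was 1 at 1, 3 and 6 h and in DMSO (0 each) and 2 in XVE plants (1), and that of higher members 1 for 6 h against DMSO (0). Over all 25323 genes the higher counts without the filter were 1840 at 1 h, 913 at 3 h and 992 at 6 h. They were 1395 in DMSO, 1964 in XVE plants and 894 for 6 h against DMSO. The lower counts over all genes were 1952, 3911, 1254, 1743, 2408 and 880, in the same order. Medians moved to 0.33 for tau at 3 h (0.06), and for 6 h against XVE to -0.13 for tau (-0.48) and -0.23 for phi (-0.60).

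Under normexp the phi count of higher members was 0 at 1 h (1), 0 in DMSO (2), 1 in XVE plants (3) and 0 for 6 h against XVE (2), and of lower members 0 for 6 h against DMSO (1) and 1 against XVE (4). The tau count of higher members was 2 at 3 h (5) and 0 in DMSO (1), and of lower members 0 in XVE plants (1) and 0 for 6 h against XVE (1). Phi medians were 0.42 at 1 h (0.63), 0.00575 at 6 h (0.21) and 0.20 in DMSO (0.41), and tau medians -0.18 at 3 h (0.06), 0.046 at 6 h (0.32) and 0.29 in DMSO (0.50). Normexp also moved the all-gene median at 3 h from -0.05 to -0.19 and for 6 h against XVE from -0.0034 to -0.17, so these medians are to be read beside it. CYP71A12 in DMSO against 0 h went from 1.11 to -0.0053; the cause was not tested.

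With the brightest probe the tau count of lower members was 1 at 1 h (0), 2 at 3 h (1) and 2 for 6 h against DMSO (1), the tau count of higher members 3 in DMSO (1), the phi count of higher members 1 for 6 h against XVE (2), and the tau median there -0.064 (-0.48). Quantile scaling gave 2 phi members higher at 1 h (1), 1 tau member higher at 6 h (0) and 2 in DMSO (1), and 0 tau members lower for 6 h against DMSO (1) and against XVE (1). Over all genes, normexp left 626 higher at 1 h against 1171, 175 at 3 h against 457, and 314 for 6 h against XVE against 687. It left 502 higher in DMSO (866) and 723 in XVE plants (1325). Lower counts were 594 in XVE plants (1325), and 270 against DMSO (466) and 771 against XVE (970) for 6 h. Quantile scaling gave 1321 higher at 1 h (1171), 566 at 6 h (500) and 911 in DMSO (866). Its lower counts for 6 h were 441 against DMSO (466) and 918 against XVE (970). The brightest probe gave 1281 lower at 1 h (1183), 1121 at 3 h (961) and 917 higher in DMSO (866). The share of calls that were higher for 6 h against XVE was 41.5%, 28.9% under normexp and 25.7% without the filter, and for 6 h against DMSO 38.4% and 50.4% without it. Dim members have only bounds, and 1 array per group limits every value.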

Other observations

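Some probes of the same gene did not move together. Of the 11 members with several probes, 2 had probes of opposite sign at 1 h: GSTU18 with -1.21 and 0.35, and GSTU19 with values from -0.86 to 0.26. The GSTU19 probes also parted for 6 h against XVE plants, at -0.29, -2.25 and -0.78, and the GSTF4 probes at 0.13 and 1.90. The median spread between probes of a member at 1 h was 0.53. Probe sequences were not used here, so whether a probe reads more than 1 gene was not tested.

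GSTU20 and GSTF11, left out of the members, had no difference of 2-fold from 0 h along the time course. GSTU20 was at 4.16, 3.50, 4.27 and 3.51 at 0, 1, 3 and 6 h, 3.88 in DMSO and 3.73 in XVE plants. GSTF11 was at 0.45, 0.05, 0.80 and 0.25, with 0.15 in DMSO and -0.56 in XVE plants, lowest on the array where GSTF12 was lowest. The glutathione peroxidase-like gene GPX6 was higher than at 0 h in all 3 samples taken at 6 h, by 1.59 with estradiol, 2.105 in DMSO and 2.48 in XVE plants. GPX1 was 2.39 higher in XVE plants and -2.64 at 6 h of estradiol against them, on the arrays where the leaf mesophyll markers differed most; with the brightest probe the first value was 0.46. The multidrug transporter gene DTX1 was higher at 6 h of estradiol than in both 6 h controls, by 1.16 and 1.43, but under normexp it was at 0.82 and 0.20.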
